A study of Mus musculus with 7 samples.

Results

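The genes described here are the Wnt ligands, their receptors and co-receptors, the R-spondins with their receptors and the ligases they act on, and the secreted inhibitors of Wnt signalling, together with Axin1, Axin2, Lef1, Tcf7 and Dkkl1. They were chosen by gene symbol, and 58 of the 27179 genes in the count files matched. Of these 58 members, 19 were Wnt ligands, 13 were receptors or co-receptors, 9 belonged to the R-spondin axis, 12 were secreted inhibitors, 4 acted inside the cell and 1, Dkkl1, is a Dkk-like gene kept apart. To be tested, a gene needed at least 0.65 CPM (counts relative to the library total) in 3 or more of the libraries, and 44 of the 58 members met this. The levels given below are CPM after a further TMM scaling between libraries.

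Wnt proteins are secreted signals that bind a Frizzled receptor (Fzd genes) together with the co-receptor Lrp5 or Lrp6, and this lets β-catenin accumulate and switch on target genes with the nuclear factors Lef1 and Tcf7. R-spondins amplify the signal by binding Lgr4, Lgr5 or Lgr6 and removing the ligases Znrf3 and Rnf43, which otherwise clear Frizzled from the cell surface. In bone the pathway promotes bone formation, and osteocytes, the cells embedded in the mineral, restrain it by secreting sclerostin (Sost) and Dkk1.

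RNA was taken from femoral cortical bone, after marrow was flushed out, of female C57BL/6 mice aged 12 weeks, with 1 library for each mouse. The libraries were labelled Dmp1Cre.EfnB2f/f (n = 3) or Dmp1Cre (n = 4, the controls). All 7 mice carried Cre recombinase under the Dmp1 promoter, which is active in late osteoblasts and osteocytes, and the controls, littermates or cousins, lacked the floxed Efnb2 allele. The study compared them to learn which transcripts differ in bone when ephrin B2 is deleted from osteocytes. The extracts held whole bone, so cells in which Dmp1Cre is not active contributed to every value. The labels name 4 parent crosses, of which only that of replicate 3 of Dmp1Cre.EfnB2f/f and control 3 held both genotypes. The other mice with the Dmp1Cre.EfnB2f/f label shared a cross that held no control. Controls 1 and 2 shared another, and control 4 had its own. Genotype and parent cross were therefore largely not separable. Except where the parent cross is a block, the tests below treat mice of a shared cross as independent. The mice were also collected on more than 1 day, and the labels do not say which mouse was collected when.

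Library totals were 18119947 to 19119250 counts in Dmp1Cre.EfnB2f/f-labelled libraries and 17245556 to 22075778 in the controls. Efnb2, the targeted gene, had 17.9, 13.1 and 11.8 CPM in Dmp1Cre.EfnB2f/f-labelled libraries and 8.49, 7.93, 6.44 and 6.36 CPM in the controls. This direction is opposite to that of the deletion the labels name, so the libraries are called by their labels throughout. These values span the entire gene, the floxed part included, in whole bone, and so do not measure the deletion in osteocytes. The study checked that by PCR of the targeted region in osteocytes sorted from other mice. It reported effective targeting there, with Efnb2 retained in cells other than osteocytes. On the first principal component, which held 53.9% of the variance, controls 1 and 4 (scores 43.9 and 68.8) stood apart from the other 5 libraries (-41.4 to -1.76). All 8 osteocyte markers (Dmp1, Mepe, Phex, Pdpn, Fgf23, Irx5, Kera and Ackr3) were detected and tested, with a summed level of 244 to 415 CPM in Dmp1Cre.EfnB2f/f-labelled libraries and 149 to 523 CPM in the controls. Fgf23 was the lowest of the 8, and none was at 0.

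The region just upstream of the start site was read for the members with an entry in the RefSeq promoter table (GRCm38.p6), which were 36 of the 58. The windows of Lgr4 and Fzd4 are shown because both members had groups that did not overlap, and that of Dkk1 because it held TCF/LEF letters in a bone inhibitor whose groups overlapped. Each window holds the 250 bases before the start, written 5′ to 3′ on the strand of the gene. Capitals mark the letters CCAAT, or ATTGG where they lie on the opposite strand, and, in Dkk1, letters of the TCF/LEF kind. Those searched, on both strands, were CTTTGAA and CTTTGAT, then CTTTGTA and also CTTTGTT.
Lgr4, chr2:109917397-109917646, plus strand: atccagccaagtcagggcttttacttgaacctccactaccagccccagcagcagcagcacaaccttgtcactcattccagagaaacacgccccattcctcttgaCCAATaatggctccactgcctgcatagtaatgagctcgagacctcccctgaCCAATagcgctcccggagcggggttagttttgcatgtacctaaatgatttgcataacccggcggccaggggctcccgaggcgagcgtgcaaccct
Fzd4, chr7:89404116-89404365, plus strand: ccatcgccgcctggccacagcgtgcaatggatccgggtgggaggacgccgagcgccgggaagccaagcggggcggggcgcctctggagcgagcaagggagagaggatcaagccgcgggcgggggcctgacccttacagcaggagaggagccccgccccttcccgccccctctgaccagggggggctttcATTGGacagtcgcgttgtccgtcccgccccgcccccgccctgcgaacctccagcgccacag
Dkk1, chr19:30549497-30549746, minus strand: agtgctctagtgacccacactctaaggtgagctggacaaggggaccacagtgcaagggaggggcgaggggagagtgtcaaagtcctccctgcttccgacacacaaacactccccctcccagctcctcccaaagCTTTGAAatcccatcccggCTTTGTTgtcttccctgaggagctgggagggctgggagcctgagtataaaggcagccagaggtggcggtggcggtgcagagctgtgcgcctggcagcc
Lgr4 had CCAAT 146 and 95 bases before the start, and Fzd4 had it on the opposite strand 61 bases before the start. Dkk1 had CTTTGAA 117 bases and CTTTGTT 98 bases before the start. Among the 36 members with a window, 5 had a TCF/LEF match in at least 1 window, and 12 had CCAAT in at least 1. Of all 32851 windows, 14.8% had a TCF/LEF match and 33.8% had CCAAT. Some members, such as Lef1 and Wnt5b, had several windows, so counts of members and shares of windows are unlike units. These matches describe the sequence and say nothing about binding.

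Across the 44 members tested, 33 (75.0%, against 51.3% of all genes) had a log2 fold change above 0, that is a higher fitted mean in Dmp1Cre.EfnB2f/f-labelled libraries, and 11 had one below 0. Without single libraries this was between 26 of 44, without control 3, and 37 of 43, without control 1. None passed the threshold of 0.05 with edgeR's quasi-likelihood test and Benjamini-Hochberg adjustment, where 0% of all 15098 genes tested passed, and the adjusted p-values of the members lay between 0.511 and 0.980. At an unadjusted p under 0.05 there were 5 members, Rspo3, Sfrp1, Fzd4, Rspo2 and Lgr4, all higher in Dmp1Cre.EfnB2f/f-labelled libraries. These are 11.4% of the members tested, against 4.63% of all genes higher at that p. In the lower direction there were 0 members, against 5.03% of all genes. In 6 members, those 5 and Lrp6, every library labelled Dmp1Cre.EfnB2f/f was above every control. This is 13.6% of the members, against 5.05% of all genes, and 0 members had every library below every control, against 6.3% of all genes. The median log2 fold change was 0.20 over the members and 0.01 over all genes tested, and that of the members was 0.50 without control 1 and 0.10 without control 3. By role it was 0.58 for the R-spondin axis, 0.35 for the ligands, 0.21 for the receptors, 0.16 for the secreted inhibitors and 0.09 for the intracellular members. Neither these sizes nor their order held without single libraries. Without control 1 the order was 0.84 for the ligands, 0.80 for the secreted inhibitors, 0.71 for the R-spondin axis, 0.36 for the receptors and 0.23 for the intracellular members. The secreted inhibitors had 0.02 without control 2, -0.08 without control 3, and 0.27 without replicate 1 or without replicate 2 of Dmp1Cre.EfnB2f/f. The ligands had 0.23 without control 2 and 0.15 without control 4, and the R-spondin axis had 0.34 without replicate 1 of Dmp1Cre.EfnB2f/f. The receptors had 0.03 without replicate 3 of Dmp1Cre.EfnB2f/f, 0.13 without control 3 and 0.10 without control 4. The median of the 4 intracellular members moved by over 1.5 times without any library other than replicate 2 of Dmp1Cre.EfnB2f/f, and lay between -0.0041, without replicate 1 of Dmp1Cre.EfnB2f/f, and the 0.23 without control 1. In whole bone, fewer cells of a type and less RNA per cell cannot be told apart.

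**Figure D1:**
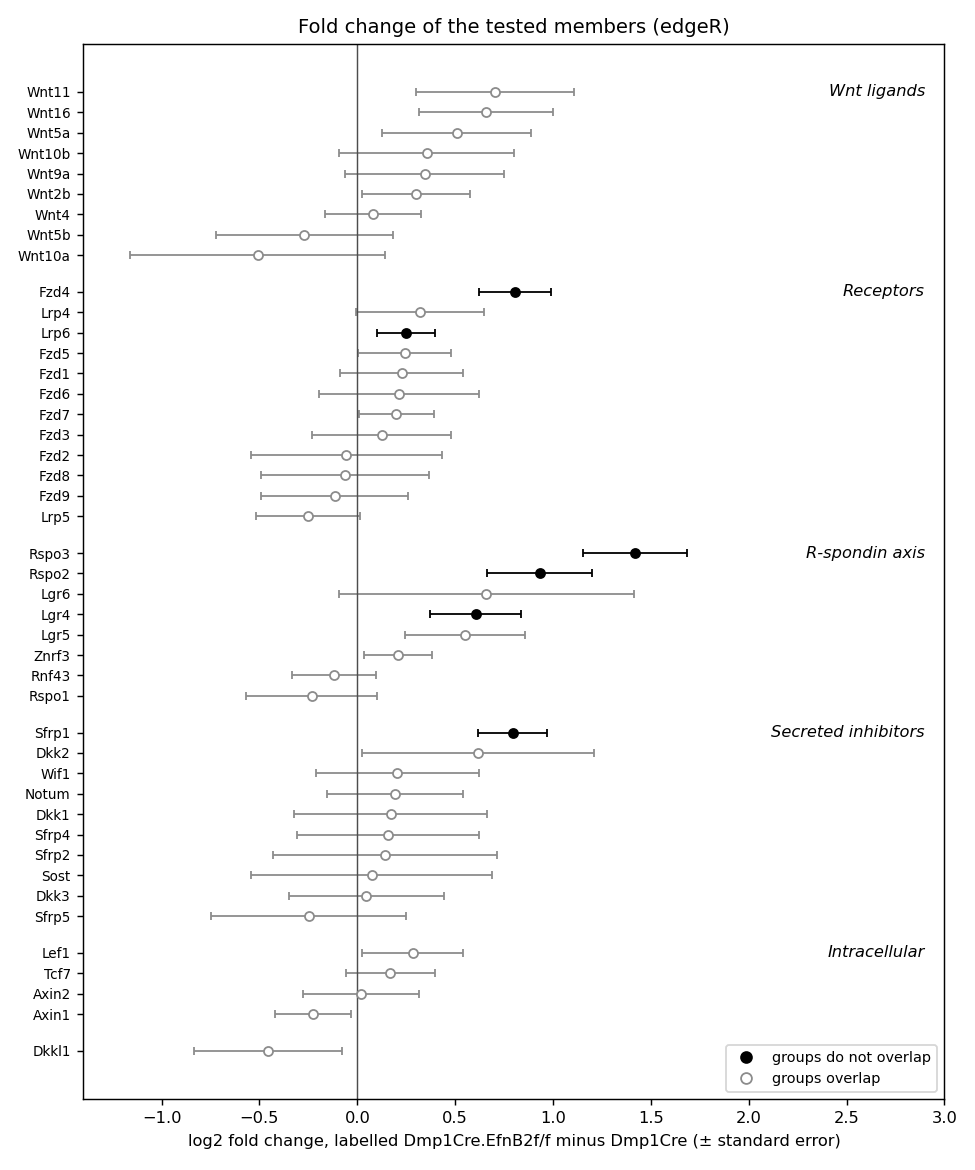
Log2 fold change (x axis) of the 44 tested members, grouped by role, in libraries labelled Dmp1Cre.EfnB2f/f (n = 3) against Dmp1Cre controls (n = 4), with bars of ± 1 standard error from edgeR. Filled points are the 6 members whose groups did not overlap, which run from Lrp6 at 0.25 to Rspo3 at 1.42, and 33 of 44 points lie above 0.

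Other tests made other calls on the same counts. DESeq2 called 3 members past an adjusted p of 0.05 (Rspo3, Sfrp1 and Fzd4, all higher), where it called 0.477% of all genes. The limma pipeline of the study, run without its block for the day of collection, called 13 members, where it called 14.9% of all genes, and 0 without its sample quality weights. Limma-voom with such weights called 1 member, Sfrp1, and 0.384% of all genes. At an unadjusted p under 0.05 the limma pipeline gave 21 members higher, against 15.1% of all genes, and 1 lower, against 17.7%, while limma-voom gave 20 higher, against 13.5%. With a block for the day in each of its 12 possible assignments, the limma pipeline called 0 to 21 members past the adjusted threshold, and the assignment with the most calls called 32.6% of all genes.

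The R-spondin axis held the member with the largest log2 fold change of the 44. Rspo3, a secreted amplifier of Wnt signalling (Entrez gene 72780, chromosome 10 of GRCm38, 29453106 to 29535867), measured 7.84, 5.26 and 7.27 CPM in Dmp1Cre.EfnB2f/f-labelled libraries and 1.97, 3.08, 2.05 and 3.04 CPM in the controls. All 3 values lay above the highest control. The means were 6.79 ± 1.35 CPM (SD, n = 3) and 2.54 ± 0.609 CPM (SD, n = 4), which is a log2 fold change of 1.42 ± 0.26 (SE). Its unadjusted p ranked 6 among the 15098 genes, and its adjusted p was 0.511 in edgeR's quasi-likelihood test after Benjamini-Hochberg adjustment. Leaving out any single library kept the log2 fold change between 1.31 and 1.58. Over all 19 alternatives it ranged from 0.90, with the limma pipeline of the study, to 1.82, with the parent cross as a block. That block rests on a single library of each genotype.

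Rspo2, the related R-spondin (chromosome 15, 43020788 to 43171594), measured 10.3, 12.2 and 11.0 CPM in Dmp1Cre.EfnB2f/f-labelled libraries and 4.14, 7.36, 4.27 and 7.66 CPM in the controls. The groups did not overlap, and the controls fell into a lower pair, 1 and 3, and a higher pair, 2 and 4. The log2 fold change was 0.93 ± 0.27 (SE, adjusted p = 0.511 in edgeR's quasi-likelihood test after Benjamini-Hochberg adjustment). Lgr4, a receptor for R-spondins (chromosome 2, 109917647 to 110014257), measured 37.1, 33.1 and 31.8 CPM against 29.0, 24.4, 21.6 and 14.4 CPM in the controls. Its groups were separated by a narrow gap between 31.8 and 29.0 CPM, and control 4 was the lowest library. Its log2 fold change was 0.60 ± 0.23 (SE, the same adjusted p of 0.511 by the same edgeR test).

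The other members of the axis overlapped between the groups. Lgr5 had 3.28, 3.67 and 5.27 CPM against 3.42, 2.05, 2.05 and 3.59 CPM, and Lgr6, its relative, had 6.95, 3.13 and 2.11 CPM against 6.78, 1.14, 0.644 and 1.63 CPM. Both were therefore high in some control, and Lgr6 differed 10.5-fold between its lowest and highest control, more than any other member tested. The ligase Znrf3 lay between 9.51 and 13.1 CPM in all 7 libraries, and the ligase Rnf43 between 4.78 and 7.28 CPM. Rspo1 was near the filter, at 0.494 to 1.04 CPM, and Rspo4, with 1 to 8 counts per library, was not tested.

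**Figure D2:**
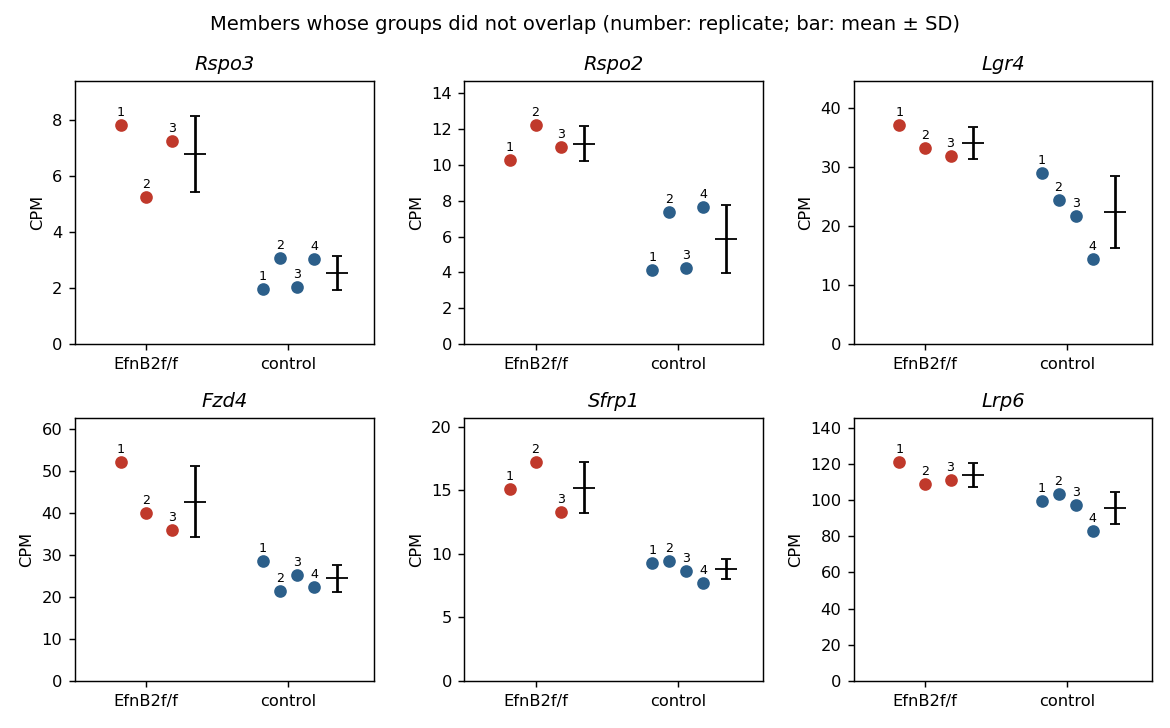
Level in CPM (y axis, from 0) of the 6 members whose groups did not overlap, with a point for each library numbered by replicate and a bar for the mean ± SD. The libraries labelled Dmp1Cre.EfnB2f/f (left, n = 3) all lie above the Dmp1Cre controls (right, n = 4), and the lowest of them was 5.26 CPM against a highest control of 3.08 CPM for Rspo3, and 31.8 against 29.0 CPM for Lgr4.

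Among the receptors, Fzd4, the Frizzled that also answers to the ligand norrin in blood vessels (chromosome 7, 89404366 to 89410110), had 52.2, 39.9 and 35.8 CPM in Dmp1Cre.EfnB2f/f-labelled libraries and 28.4, 21.5, 25.3 and 22.3 CPM in the controls. The groups did not overlap. The means were 42.7 ± 8.51 CPM (SD, n = 3) and 24.4 ± 3.15 CPM (SD, n = 4), which is a log2 fold change of 0.81 ± 0.19 (SE, rank 35 by unadjusted p, adjusted p = 0.511 in edgeR's quasi-likelihood test after Benjamini-Hochberg adjustment). Fzd4 overlaps Tmem135 in the annotation, and since the strand setting of the counting was not stated, reads could be shared between them. Of 7 endothelial markers, 6 also had a log2 fold change above 0. Emcn, Tek and Flt1 were above every control in all 3 libraries (42.9% of the 7, against 5.05% of all genes). The exception, Vwf, had a log2 fold change of -0.28 and was the highest of the 7 in every library. It had 539, 507 and 561 CPM against 511, 596, 442 and 1047 CPM in the controls. The 7 markers together, Vwf included, summed to 977 to 1056 CPM against 790 to 1459 CPM in the controls, with none at 0. The part of endothelial cells in the Fzd4 values was not tested.

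Lrp6, the co-receptor that passes the signal on with Lrp5 (chromosome 6, 134446476 to 134566913), had 121, 109 and 111 CPM in Dmp1Cre.EfnB2f/f-labelled libraries and 99.4, 103, 97.2 and 82.9 CPM in the controls. The groups did not overlap, but the gap was narrow, and the log2 fold change was 0.25 ± 0.15 (SE, adjusted p = 0.528 in edgeR's quasi-likelihood test after Benjamini-Hochberg adjustment). Lrp5, whose loss or gain of function sets bone mass, had 98.2, 97.4 and 116 CPM against 180.5, 95.6, 84.2 and 134 CPM, a log2 fold change of -0.25 ± 0.27 (SE). Its 3 libraries labelled Dmp1Cre.EfnB2f/f lay within the range of the controls, whose highest was control 1. Lrp4, which binds sclerostin and helps it act, had 259, 219.7 and 171 CPM against 291, 151, 111 and 141 CPM, a log2 fold change of 0.32 ± 0.33 (SE). Here the groups overlapped only through control 1, and without that library the log2 fold change was 0.69.

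The other Frizzled receptors overlapped between the groups. Fzd5 (29.8 to 61.7 CPM over the 7 libraries), Fzd7 (20.0 to 33.9 CPM) and Fzd1 (12.8 to 33.7 CPM) were the highest of them, while Fzd8, Fzd9, Fzd6, Fzd3 and Fzd2 ranged between 0.995 CPM, for Fzd2 in control 3, and 21.4 CPM, for Fzd8 in control 1. Fzd10, with 2 to 15 counts per library, was not tested.

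Of the 19 Wnt ligands, 9 were tested, and the other 10, Wnt1, Wnt2, Wnt3, Wnt3a, Wnt6, Wnt7a, Wnt7b, Wnt8a, Wnt8b and Wnt9b, had at most 13 counts in any library. Wnt3a and Wnt7a had 1 count each in all 7 libraries together. No tested ligand passed an unadjusted p under 0.05, and the groups of all 9 overlapped. Wnt16, a ligand that limits cortical bone loss, had the highest mean level per length of the ligands, 4.27 RPKM (library-scaled reads per kilobase of gene length). It had 7.95, 11.4 and 7.70 CPM in Dmp1Cre.EfnB2f/f-labelled libraries and 9.58, 5.19, 4.22 and 3.80 CPM in the controls, so that only control 1 reached the other group. Its log2 fold change was 0.66 ± 0.34 (SE, adjusted p = 0.517 in edgeR's quasi-likelihood test after Benjamini-Hochberg adjustment), and 1.03 without control 1.

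Wnt10b, which favours bone over fat formation, had 4.67, 4.22 and 5.32 CPM against 7.41, 2.68, 1.81 and 2.88 CPM, a log2 fold change of 0.35 ± 0.45 (SE). Control 1 was the highest library and the other 3 controls were the lowest. Wnt5b, a ligand of the β-catenin-independent branch, had 8.95, 7.57 and 6.69 CPM against 19.1, 5.87, 5.15 and 7.12 CPM, again with control 1 far above the rest. Its log2 fold change was -0.27 ± 0.45 (SE) with all libraries and 0.35 without control 1, and it overlaps Fbxl14 in the annotation, so reads could be shared. Wnt4 had 9.12, 8.61 and 9.96 CPM against 12.4, 6.90, 6.91 and 8.64 CPM, a log2 fold change of 0.08 ± 0.25 (SE). Wnt9a, Wnt5a, Wnt2b and Wnt11 lay between 1.58 and 8.33 CPM in every library, and Wnt10a between 0.167 and 1.47 CPM.

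The secreted inhibitors included the most abundant member per length. Sost, which encodes sclerostin, had the highest mean of the 58 members, 35.3 RPKM, and ranged from 12.3 to 79.5 RPKM over the libraries. In CPM it had 124, 54.3 and 47.1 in Dmp1Cre.EfnB2f/f-labelled libraries and 164, 51.5, 25.5 and 43.8 in the controls. The highest and the lowest library were both controls, 6.45-fold apart, and replicate 1 was far above replicates 2 and 3 of Dmp1Cre.EfnB2f/f. The log2 fold change was 0.07 ± 0.61 (SE, adjusted p = 0.963 in edgeR's quasi-likelihood test after Benjamini-Hochberg adjustment), and leaving out single libraries moved it between -0.49 and 0.90.

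Wif1, which binds Wnt proteins directly, and Sfrp4, a Frizzled-like decoy, followed at 17.7 and 13.1 RPKM. Wif1 had 41.0, 42.8 and 45.1 CPM in Dmp1Cre.EfnB2f/f-labelled libraries and 74.5, 25.4, 19.7 and 29.5 CPM in the controls, so the former lay close together between control 1 and the other controls. Its log2 fold change was 0.21 ± 0.42 (SE) and 0.79 without control 1. Sfrp4 had 18.3, 18.7 and 36.7 CPM against 35.3, 15.7, 8.61 and 28.6 CPM, a log2 fold change of 0.16 ± 0.46 (SE), with wide overlap. Dkk1, which blocks Lrp5 and Lrp6, had 9.73, 6.69 and 8.91 CPM against 15.4, 4.62, 2.99 and 6.90 CPM, a log2 fold change of 0.17 ± 0.49 (SE) and 0.80 without control 1.

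Sfrp1, another Frizzled-like decoy (chromosome 8, 23411383 to 23449632), differed from this arrangement. It had 15.1, 17.3 and 13.3 CPM in Dmp1Cre.EfnB2f/f-labelled libraries and 9.27, 9.47, 8.66 and 7.72 CPM in the controls. The groups did not overlap, control 1 lay with the other controls, and the controls were within 1.23-fold of each other, the narrowest control range among the tested members. The means were 15.2 ± 2.00 CPM (SD, n = 3) and 8.78 ± 0.787 CPM (SD, n = 4), which is a log2 fold change of 0.79 ± 0.18 (SE, rank 22 by unadjusted p, adjusted p = 0.511 in edgeR's quasi-likelihood test after Benjamini-Hochberg adjustment).

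Of the remaining inhibitors, Dkk3 (11.6 to 31.1 CPM) and Sfrp2 (4.04 to 18.9 CPM) were highest in control 1, as were Notum, a lipase that inactivates Wnt proteins (0.799 to 1.76 CPM), Dkk2 (0.380 to 3.52 CPM) and Sfrp5 (0.439 to 1.81 CPM). Sostdc1 and Dkk4, with 0 to 6 and 0 to 3 counts per library, were not tested. Dkkl1 had 1.89, 2.80 and 2.27 CPM against 3.00, 2.11, 2.17 and 5.43 CPM, with control 4 the highest.

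**Figure D3:**
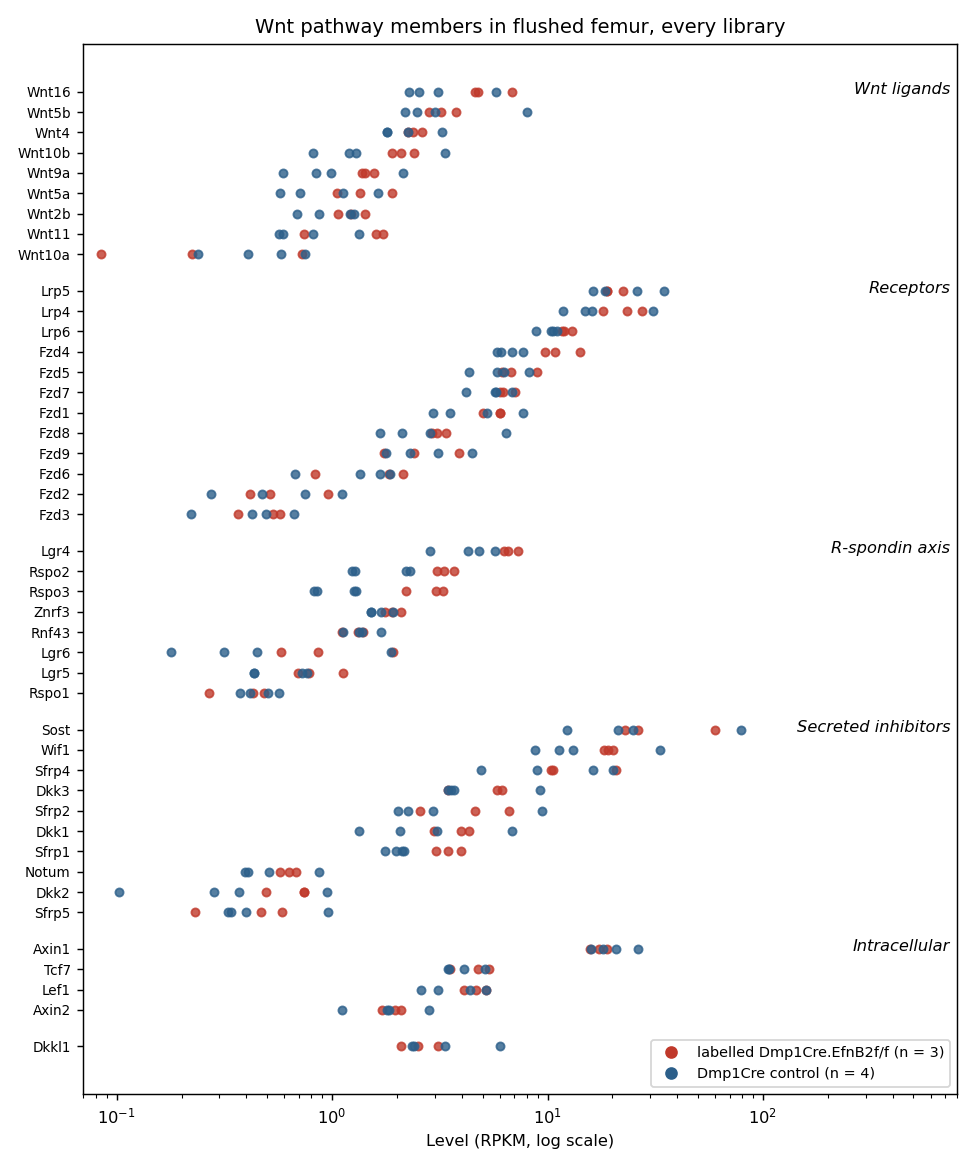
Level in RPKM (x axis, log scale) of the 44 tested members, grouped by role and ordered by mean, with a point for each library labelled Dmp1Cre.EfnB2f/f (n = 3) or Dmp1Cre (n = 4). Sost, with a mean of 35.3 RPKM, spans 12.3 to 79.5 RPKM, and most inhibitors span a wider range in the controls than Sfrp1.

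Inside the cell, Axin1, a scaffold of the complex that destroys β-catenin, had 59.4, 71.0 and 65.8 CPM in Dmp1Cre.EfnB2f/f-labelled libraries and 78.5, 68.2, 60.3 and 99.0 CPM in the controls, giving a log2 fold change of -0.23 ± 0.20 (SE). Axin2, a scaffold that is itself a common target of the pathway, had 8.89, 7.24 and 8.33 CPM against 12.0, 4.73, 7.79 and 7.66 CPM. Its means were 8.15 ± 0.841 CPM (SD, n = 3) and 8.04 ± 2.97 CPM (SD, n = 4), with a log2 fold change of 0.02 ± 0.30 (SE, adjusted p = 0.980 in edgeR's quasi-likelihood test after Benjamini-Hochberg adjustment). The groups of both genes overlapped.

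The nuclear factor Lef1 had 12.7, 10.04 and 11.4 CPM against 10.7, 7.64, 6.38 and 12.7 CPM, a log2 fold change of 0.28 ± 0.26 (SE). Tcf7, its relative, had 12.0, 10.7 and 7.85 CPM against 9.17, 11.5, 7.73 and 7.83 CPM, a log2 fold change of 0.17 ± 0.23 (SE). T cells also use both factors, and the 8 T lineage markers summed to 65.0 to 79.0 CPM against 62.2 to 88.6 CPM, with none at 0. The 8 B lineage markers summed to 319, 339 and 337 CPM against 354, 219, 215 and 396 CPM. Like Lef1, they were lowest in controls 2 and 3. The part of T and B cells in the Lef1 and Tcf7 values was not tested. Tcf7 overlaps Skp1 in the annotation, and Axin1, Lrp5 and Lrp6 overlap predicted genes, with which reads could likewise be shared.

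Per length, the receptors and the destruction complex stood beside the inhibitors. After Sost came Lrp5 (22.3 RPKM), Lrp4 (20.4 RPKM), Axin1 (19.0 RPKM), Wif1, Sfrp4, Lrp6 (11.0 RPKM) and Fzd4 (8.74 RPKM). The ranges of neighbours in this order overlapped, as Lrp5 ranged from 16.3 to 34.9 RPKM and Lrp4 from 11.8 to 31.0 RPKM over the 7 libraries. Every tested ligand had a lower mean than these 8 members, with Wnt16 the highest at 4.27 RPKM and Wnt10a the lowest at 0.430 RPKM.

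By their median, the members had a wider range among mice of 1 genotype than all genes tested. The 2 sets were not matched for level, and members near the filter, such as Wnt10a and Sfrp5, rest on few counts, which can widen such folds. Between the lowest and the highest control, the median fold was 2.52 over the 44 members and 1.77 over all genes tested, and among the libraries labelled Dmp1Cre.EfnB2f/f it was 1.46 and 1.26. Control 1 was the highest of the 7 libraries for 20 of 44 members (45.5%, against 14.0% of all genes) and for 8 of the 10 secreted inhibitors. Control 3 was the lowest for 17 members (38.6%, against 13.4% of all genes). The osteocyte markers, by their median, followed the same libraries. Their median deviation from each gene's mean, on the log2 CPM scale, was 1.13 in control 1 and -0.78 in control 3. That of the secreted inhibitors was 1.03 and -0.72, and that of the R-spondin axis was 0.06 and -0.44. Not every osteocyte marker did so. Fgf23 was lowest in control 1, at 0.259 CPM, and had 0.937 CPM in control 3. Phex was highest in replicate 1 of Dmp1Cre.EfnB2f/f, and Kera, at 4.45 CPM in control 3, was above every Dmp1Cre.EfnB2f/f-labelled library there. The 9 osteoblast markers had a summed level of 72153 CPM in control 1 and 14504 to 35642 CPM in the other controls. The part of osteocyte and osteoblast content in these values was not tested.

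**Figure D4:**
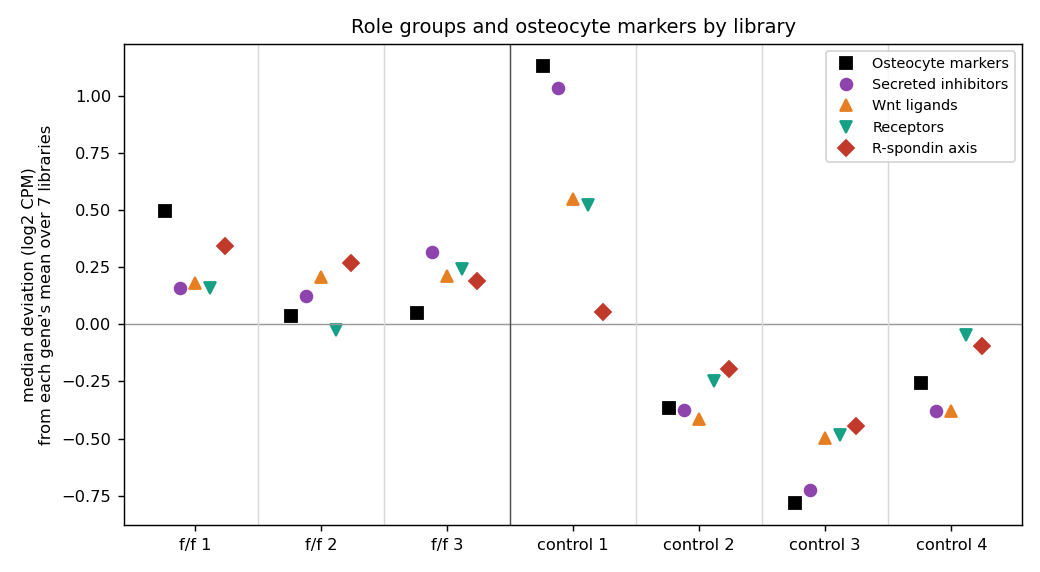
Median deviation (y axis, log2 CPM, from each gene's mean over the 7 libraries) of 4 role groups and of the 8 osteocyte markers in each library (x axis, f/f for libraries labelled Dmp1Cre.EfnB2f/f and control for Dmp1Cre). In control 1 the osteocyte markers and the secreted inhibitors stand at 1.13 and 1.03, while the R-spondin axis stands at 0.06.

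Without control 1, the highest library for many members, 16 of the 43 then tested were higher at an unadjusted p under 0.05, against 7.27% of all genes. Without control 3, the lowest for many, it was 4 of 44 (9.09%), against 7.34% of all genes. Without controls 1 and 4, a choice made after seeing the data, it was 23 of 42, against 10.3% of all genes. No member passed the adjusted threshold in any of these cases with edgeR's quasi-likelihood test. In the only cross that held both genotypes, replicate 3 of Dmp1Cre.EfnB2f/f was above control 3 for 40 of 44 members (90.9%), against 50.6% of all genes. This sets a single library against another and has no replicate check, and control 3 was the lowest library for many members. The exceptions were Wnt2b, Wnt11, Fzd3 and Rnf43. The fold in this pair was 3.55 for Rspo3, 2.58 for Rspo2, 1.42 for Fzd4, 1.53 for Sfrp1, 4.26 for Sfrp4 and 1.85 for Sost.

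Markers of other tissues also went with the labels. All 8 skeletal muscle markers had a log2 fold change above 0, with a summed level of 22953 to 35708 CPM in Dmp1Cre.EfnB2f/f-labelled libraries and 10914 to 24568 CPM in the controls. The 7 erythroid markers in the files and the 8 granulocyte markers all had one below 0, and the erythroid markers summed to 7597 to 15222 CPM against 17361 to 49877 CPM, with no overlap. None of these markers was at 0, and their part in the differences of the Wnt members was not tested. The 6 stromal and periosteal markers summed to 2298 to 3140 CPM against 1823 to 4624 CPM, and the 8 B lineage markers to 319 to 339 CPM against 215 to 396 CPM. Adipocyte markers (5 genes) summed to 261 to 444 CPM against 152 to 574 CPM, and chondrocyte markers (6 genes, 3 tested) to 305 to 582 CPM against 153 to 1104 CPM.

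Another 44 genes of the pathway that are no members, such as those for Wnt secretion, the destruction complex and planar polarity, were read in the same way. Of the 41 tested, 24 (58.5%, against 51.3% of all genes) had a log2 fold change above 0, with a median of 0.05. At an unadjusted p under 0.05, 3 (7.32%, against 4.63% of all genes) were higher and 0 were lower. Without single libraries, those at this p in either direction numbered 0 without replicate 1 of Dmp1Cre.EfnB2f/f, against 2.84% of all genes. There was 1 (2.44%) without its replicate 2, against 3.88% of all genes, or without control 2, against 10.8%. There were 5 (12.2%) without control 3, against 15.8%, and 6 (14.6%) without control 1, against 11.3%. The 3 found with all 7 libraries were Tnfrsf19, Pygo1 and Amer1. Tnfrsf19 is a receptor of the tumour necrosis factor family and a pathway target (log2 fold change 0.60). Pygo1 is a nuclear co-factor of β-catenin (0.91), and Amer1 is a partner of the destruction complex (0.51). Tnfrsf19 had 99.4, 88.7 and 84.5 CPM in Dmp1Cre.EfnB2f/f-labelled libraries and 81.6, 53.8, 48.6 and 56.3 CPM in the controls. Its groups did not overlap, and neither did those of Nkd1, an inhibitor of the pathway inside the cell, Prickle2, a planar polarity gene, and Mest, all higher in Dmp1Cre.EfnB2f/f-labelled libraries. These 4 are 9.76% of the genes tested here, against 5.05% of all genes. Ctnnb1, which encodes β-catenin, had 455 to 506 CPM against 396 to 591 CPM, and Sp5, a pathway target, was at 0 in every library.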

How the data were processed

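Bone RNA of 7 mice (3 Dmp1Cre.EfnB2f/f, 4 Dmp1Cre) was made into TruSeq libraries and read as 100-base paired ends. Rsubread placed the reads on mm10 and featureCounts assigned them to the annotation that comes with it, after which the authors deposited raw counts per Entrez gene with gene lengths, without normalization or pooling. Per the submitters' processing notes, bcl2fastq 2.17.1.14 was used. The strand setting is not given in the sources used here.

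A filter of 0.65 CPM, reached in 3 or more libraries, kept 16302 genes. Of these, 1204 immunoglobulin segments, ribosomal RNA genes, predicted genes, pseudogenes, Y and Xist genes and IDs without a symbol were left out, as in the study, which left 15098. These were fitted with edgeR 4.0.16 (TMM scaling, robust quasi-likelihood) in R 4.3.3 on all 7 libraries, and p-values were adjusted after Benjamini and Hochberg (threshold 0.05). SE is the size of the log2 fold change over the root of its F statistic. Levels are TMM-scaled CPM, and RPKM divides them by the deposited gene length. The fit was tested on simulated data first. Positions and promoter sequences are from RefSeq (GRCm38.p6), where 25275 of 27179 genes were found.

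The members, gene lists and tests were chosen with earlier results of these data known, so no set test was run. Fold changes are given for Sost, Dkk1, Sfrp4, Wif1, Lrp4, Lrp5, Lrp6, Wnt10b, Wnt16, Axin2, Lef1 and Tcf7, for the 3 tested members of each role with the highest mean RPKM, and for each member at an unadjusted p under 0.05. Alternatives were library size or upper-quartile scaling, DESeq2 1.42.0, other filters, limma 3.58.1 (the study's pipeline, and voom), the replicate number or parent cross as a block, a day block in each of its 12 possible assignments, and each library left out. Leaving out controls 1 and 4 together and the limma pipeline without weights were added after seeing the data. Every pair of libraries of 1 genotype differed by more than sampling noise (chi-square per degree of freedom 31.5 to 206). Intervals and p-values rest on 3 and 4 mice, some of which shared a parent cross.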

Additional observations from a re-analysis of the deposited data

Results flagged for a closer look

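Of the 20 members given with a fold change, each examined within the 4 controls, Wnt5b had a control far from the others. Control 1 was at 19.1 CPM and the other controls between 5.15 and 7.12 CPM, so the gap to the nearest of the others was 0.859 of the whole range of the controls. Chance gives such a gap in about 1 of 20 independent groups, and of the 20 members examined 1 was flagged. The members share the same 4 controls and are not independent groups, so this count cannot be judged against chance. The same measure was 0.822 for Wif1, 0.812 for Sost and 0.809 for Wnt10b, so Wnt5b was not alone in this. Control 1 also had the highest level of Sost, Wif1, Dkk1, Wnt10b and Wnt4.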

How the results depend on the processing

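No log2 fold change of the 20 members given with one reversed under library size or upper-quartile scaling, other filters or all gene classes kept. Those of Rspo3, Rspo2, Lgr4, Fzd4, Sfrp1, Lrp6, Lrp4, Lef1, Wnt10b and Wnt16 kept their direction in all 19 alternatives. For the members whose groups did not overlap, Rspo3, Rspo2, Lgr4, Fzd4, Sfrp1 and Lrp6, this says little. Their direction with libraries left out, or with the parent cross block, was largely set in advance. Reversed values were, for Axin2, -0.0035 with DESeq2 and -0.0483 with the limma pipeline without weights, which also gave -0.0119 for Wnt4. The limma pipeline of the study gave 0.0373 for Axin1, 0.0840 for Lrp5, -0.0285 for Tcf7 and 0.22 for Wnt5b. Limma-voom gave 0.00023 for Axin1, 0.0486 for Lrp5 and 0.35 for Wnt5b. With the parent cross block, the genotype effect rests on the only cross that held both genotypes, replicate 3 of Dmp1Cre.EfnB2f/f against control 3. This block gave 0.13 for Axin1, 0.46 for Lrp5 and 0.38 for Wnt5b. Leaving out controls 1 and 4 gave 0.0287, 0.21 and 0.49 in the same order. That last alternative and the limma pipeline without weights were chosen after seeing the data. The cause of these reversals was not tested.

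Without single libraries, log2 fold changes ranged from -0.16 to 0.28 for Axin2, -0.0900 to 0.80 for Dkk1, -0.25 to 0.48 for Sfrp4, -0.49 to 0.90 for Sost, -0.0037 to 0.79 for Wif1, -0.0152 to 0.30 for Wnt4 and -0.47 to 0.35 for Wnt5b. Members higher at an unadjusted p under 0.05 then numbered 4 to 16, where 1.81% to 7.34% of all genes were higher. The 16 were without control 1 (37.2%, against 7.27% of all genes). There were 4 without replicate 1 of Dmp1Cre.EfnB2f/f (9.3%, against 1.81%), its replicate 2 (9.09%, against 2.11%) or control 3 (9.09%, against 7.34%). Members lower numbered 0 to 1, where 1.04% to 8.45% of all genes were lower.

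The count of members past the threshold was 0 in the edgeR fit, 3 with DESeq2, 13 with the limma pipeline of the study, 1 with limma-voom, and 0 to 21 over the 12 possible day blocks (the highest beside 32.6% of all genes). At an unadjusted p under 0.05, 21 members were higher with the limma pipeline (47.7%, against 15.1% of all genes) and 1 lower (against 17.7%), 20 were higher with limma-voom (45.5%, against 13.5%) and 23 without controls 1 and 4 (54.8%, against 10.3%). The parent cross block rests on a single library of each genotype, and its control, control 3, was the lowest library for many members. The median over the members, 0.20, was 0.70 with the parent cross block, 0.69 without controls 1 and 4, and 0.10 to 0.50 without single libraries. That of the secreted inhibitors, 0.16, was 1.04 and 0.93 in the same order, and that of the R-spondin axis, 0.58, was 0.96 and 0.75. Library size scaling moved the median of all genes to 0.09.

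The replicate numbers did not pair the mice (correlations of deviations -0.14, 0.06 and -0.42). With the replicate block, in which control 4 has no partner, the log2 fold change of Rspo3 was 1.53 and the median over the members was 0.22, and no call of a member changed. Of the other pathway genes, 3 of 41 had an unadjusted p under 0.05 in either direction in the edgeR fit (7.32%, against 9.66% of all genes). It was 1 with the replicate block (2.44%, against 3.82%) and 13 with the limma pipeline of the study (31.7%, against 32.9%). Limma-voom gave 11 (26.8%, against 23.6%), and library size only gave 5 (12.2%, against 9.37%). Without controls 1 and 4 it was 10 (24.4%, against 17.5%). Without single libraries it was 0 to 6, where 2.84% to 15.8% of all genes had such a p. Members near the filter, such as Rspo1, Wnt10a, Sfrp5 and Notum, rest on few counts, which limits their precision.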
